A study of Mus musculus with 96 samples.

Results

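The genes described here are 8 genes of fatty acid oxidation and of the response to the nuclear receptor PPARA, namely Ppara, Cpt1a, Ehhadh, Pdk4, Cyp4a10, Cyp4a14, Acot1 and Fgf21. They were picked by their symbols in the probe-to-gene table of the array, out of 19505 measured genes, and each was read by 1 transcript cluster. Expression was measured with Affymetrix Clariom S mouse arrays in the liver, gonadal (visceral) adipose tissue, pancreas and striatum of 24 C57BL/6JOlaHsd mice, 96 arrays in all. The mice, bought at 6 weeks of age, were given a subcutaneous injection every day for 28 days. The 3 groups were risperidone at 1 mg/kg, olanzapine at 3.5 mg/kg and vehicle, which was saline with DMSO and Tween 20 at 5% each, and each group held 4 males and 4 females. All mice had free access to standard chow and were killed 1 h after the last injection. By the study's methods, blood glucose at 28 days was read after 6 h without food and further blood was taken once the mice had been decapitated, and how long food was absent before each tissue was removed is not stated. Mice are named by sex and number, as F1 or M24. All levels below are log2 values, so a difference of 1 is a change of the signal by a factor of 2. The comparisons of risperidone and of olanzapine share the same 8 vehicle mice.

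PPARA is a receptor for fatty acids and their derivatives that binds DNA together with a retinoid X receptor, and in mice it is best known for turning on fat burning in the fasted liver. Its targets fall into several roles. Cpt1a encodes the liver form of carnitine palmitoyltransferase, which controls the entry of long-chain fatty acids into mitochondria. Ehhadh encodes the bifunctional enzyme of peroxisomal beta-oxidation, and Cyp4a10 and Cyp4a14 encode cytochromes P450 that hydroxylate the end of the fatty acid chain. Acot1 encodes a cytosolic thioesterase that releases fatty acids from coenzyme A. Pdk4 encodes a kinase that inhibits the pyruvate dehydrogenase complex and so spares glucose, and Fgf21 encodes a hormone that the liver secretes in fasting. Cyp4a10 has near-identical relatives (Cyp4a31 and Cyp4a32) and Acot1 has Acot2, so part of their signal may come from the relatives.

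The RNA of liver and striatum was labelled with another kit than that of pancreas and adipose tissue, so each tissue was analysed alone and levels are not set side by side between tissues. The mean level of 4 hepatocyte markers was 19.14 to 19.45 in the liver, and that of the adipocyte markers was 10.01 to 14.77 in adipose tissue. By treatment, the adipocyte markers were at 10.01 to 14.24 under risperidone (mean 12.37) and 12.12 to 14.46 under olanzapine (mean 13.74). Under vehicle they were at 12.74 to 14.77 (mean 13.61). The part of this spread in the adipose results was not tested. Some arrays stood apart. In adipose tissue, 5 genes of the gonad and reproductive tract averaged over 9 in 4 male arrays (risperidone M4, M5 and M23, olanzapine M9) and at most 7.53 elsewhere. The wide ranges were those of Adam7 (6.01 to 19.50) and Cyp17a1 (6.55 to 13.14). Star (6.22 to 7.18), Sva (3.95 to 6.18) and Wfdc15a (4.69 to 8.17) stayed below 9 in every array. Gonad and tract signal below means the average of the 5. In the pancreas, hepatocyte markers averaged 14.86 in risperidone F4, 12.50 in vehicle M19 and 10.77 in vehicle M3, against at most 9.84 in the others. Results that rest on these arrays are given with and without them. The mean of 3 Y-linked genes separated the sexes in liver, adipose tissue and striatum, but in the pancreas 6 of 12 males were below the highest female. The mouse numbers fall into the ranges 1 to 9 and 19 to 27, which the labels do not explain, and they are uneven between the drugs, with 3 olanzapine, 5 risperidone and 4 vehicle mice in 1 to 9 and 5, 3 and 4 in 19 to 27.

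In the liver, none of the 8 genes changed with either drug at an adjusted p under 0.05. The limma fit called 0.041% of all genes in risperidone against vehicle and 0.0205% in olanzapine against vehicle. Without adjustment, 1 of 8 members had a p under 0.05 in each comparison, Pdk4 for risperidone and Cyp4a14 for olanzapine, and among all genes 1053 and 1279 of 19505 did.

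Pdk4 had a lowest, median and highest level of 4.71, 5.77 and 10.84 in risperidone livers and of 4.26, 5.29 and 7.45 in olanzapine livers, against 4.46, 5.03 and 6.46 in vehicle livers. The groups overlapped, but the 4 risperidone mice above every vehicle mouse were the 4 females. Pdk4 was 10.84, 7.54, 6.74 and 6.48 in risperidone females, against 6.46, 5.78, 5.26 and 4.46 in vehicle females. The difference between risperidone and vehicle was 1.18 (SE 0.47, adjusted p = 0.785) over all mice, and 2.41 (SE 0.60, adjusted p = 0.206) within females. It was -0.04 within males, whose levels were 4.26 to 5.26 over all treatments. These lie below the median gene of the liver arrays (6.12 to 6.29), and whether they are above background was not tested. Without mouse F23, which had the level of 10.84, the difference over all mice was 0.64. Within mouse numbers 1 to 9 it was 1.12, and within 19 to 27 it was 1.77. Pdk4 was 0.41 higher in olanzapine than in vehicle livers (SE 0.47), a difference below its error.

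Cyp4a14 spread over many doublings in every group. It had a lowest, median and highest level of 10.14, 17.19 and 18.90 in risperidone livers and of 13.56, 17.38 and 18.79 in olanzapine livers, against 9.29, 15.46 and 18.88 in vehicle livers. The low values of each group were males. In males, Cyp4a14 was 10.14, 14.53, 15.19 and 17.55 under risperidone and 13.56, 14.53, 16.08 and 16.64 under olanzapine, against 9.29, 12.23, 12.71 and 14.56 under vehicle. Olanzapine livers were 1.91 above vehicle livers (SE 0.75, adjusted p = 0.653), with a difference of 3.01 (SE 1.05, adjusted p = 0.686) in males and of 0.81 in females. Within mouse numbers 1 to 9 the olanzapine difference was 2.32, and within 19 to 27 it was 1.48. Risperidone livers were 1.20 above vehicle livers (SE 0.75, adjusted p = 0.956), or 0.66 without vehicle M3. The olanzapine difference uses the same vehicle mice, so it is also smaller without vehicle M3.

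Cyp4a10, whose gene neighbours Cyp4a14, had a lowest, median and highest level of 14.17, 16.36 and 17.74 under risperidone, of 14.64, 16.78 and 17.19 under olanzapine and of 11.99, 16.27 and 18.46 under vehicle. In males alone it was 1.41 (SE 0.63, adjusted p = 0.997) higher under risperidone than under vehicle and 1.5 (SE 0.63, adjusted p = 0.835) higher under olanzapine than under vehicle. The effect of each drug in males minus that in females was 1.96 (adjusted p = 0.991) for risperidone and 2.03 (adjusted p = 0.92) for olanzapine. None of the members passed this test of a sex-specific drug effect in the liver, and neither did any other gene (0% of genes called for each drug), while 932 and 1055 genes had an unadjusted p under 0.05, among them 2 members (Pdk4 and Cyp4a10) for risperidone and 1 (Cyp4a10) for olanzapine.

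Acot1 had a lowest, median and highest level of 6.5, 9.14 and 12.93 under risperidone, of 5.19, 8.34 and 10.16 under olanzapine and of 4.73, 7.35 and 12.68 under vehicle. The risperidone difference from vehicle was 1.12 (SE 0.75, adjusted p = 0.963). It was 0.42 without vehicle F1 and 1.61 without vehicle F20. Ehhadh was 0.46 higher under risperidone than under vehicle (SE 0.45) and 0.43 higher under olanzapine than under vehicle (SE 0.45). Both differences were about the size of their error, and without vehicle F1 they were 0.06 for risperidone and 0.03 for olanzapine. Ppara itself, Cpt1a and Fgf21 differed from vehicle by no more than 0.19 in either direction. The 95% intervals of the risperidone differences were -0.50 to 0.48 for Ppara, -0.45 to 0.27 for Cpt1a and -0.45 to 0.83 for Fgf21. Setting olanzapine against risperidone, no member had an unadjusted p under 0.05 in the liver, where 0.0564% of genes were called and 1514 genes had such a p. Olanzapine minus risperidone was -0.84 for Acot1 (SE 0.75) and -0.78 for Pdk4 (SE 0.47), and -0.48 and -0.23 without risperidone F23. It was 0.71 for Cyp4a14 (SE 0.75) and 0.12 without risperidone M23. With the range of the mouse number as a term, 2 members had an unadjusted p under 0.05 and none was called, Acot1 (-1.35, adjusted p = 0.482) and Pdk4 (-0.97, adjusted p = 0.488). Within numbers 19 to 27 these were Acot1 (-1.73, adjusted p = 0.306) and Fgf21 (-0.96, adjusted p = 0.432), and within 1 to 9 the differences were -0.57 and 0.12.

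**Figure D1:**
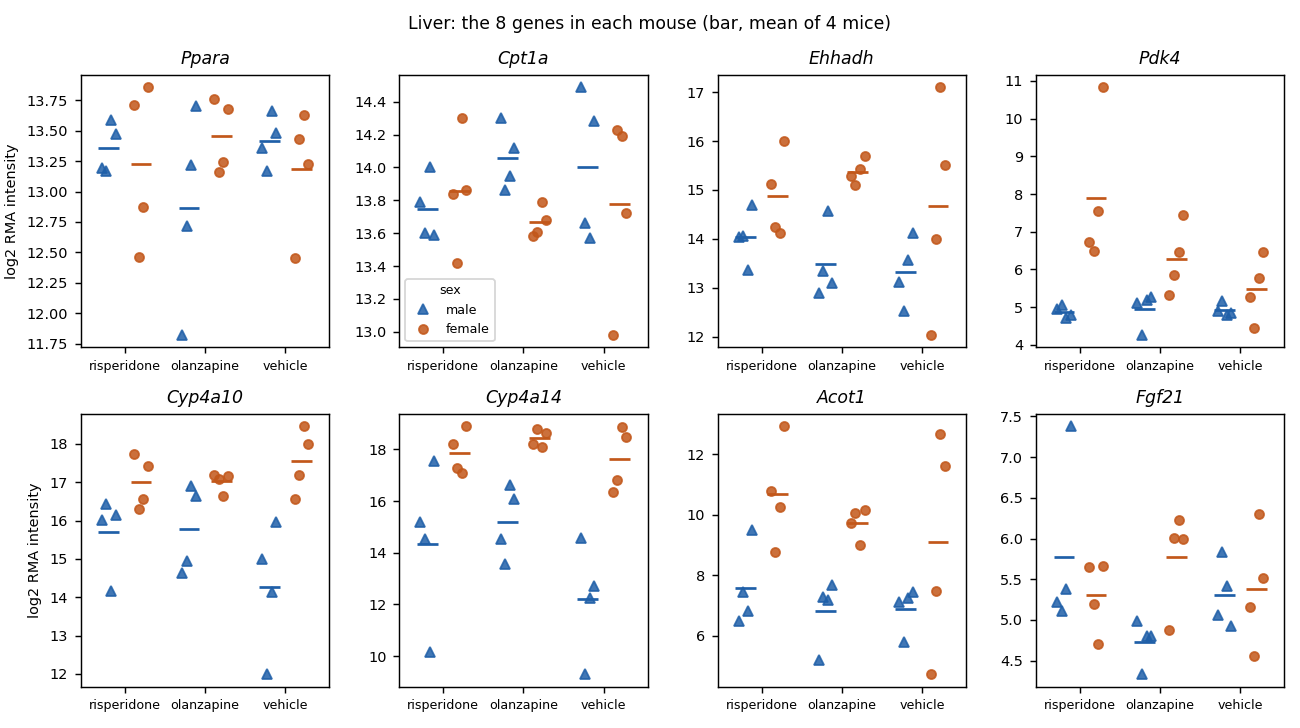
Liver log2 levels of the 8 genes in each mouse, by treatment (risperidone, olanzapine, vehicle) and sex. Points are mice and bars are means of 4 mice. Cyp4a14 runs from 9.29 to 18.90, with the low values in males, and the highest Pdk4 value, 10.84, is a risperidone female.

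The wider pathway showed the same absence of called genes. Of 56 further genes measured (mitochondrial and peroxisomal beta-oxidation, ketone body synthesis, other PPARA targets, partners of PPARA and FGF21 receptors), none was called for either drug in the liver, while 4 had an unadjusted p under 0.05 for risperidone and 1 for olanzapine. Against vehicle, 46 of the 56 had a positive difference in risperidone livers, as did 49.2% of all genes. Their median was 0.14, against -0.003 over all genes. All 15 other PPARA targets were among the positive ones, and the lowest adjusted p of the 15 was 0.191. Acot2, a mitochondrial thioesterase picked after its value was seen, was at 0.91 (SE 0.31, adjusted p = 0.629). In olanzapine livers 31 of the 56 were positive, as were 53% of all genes, with a median of 0.04 against 0.01 over all genes. The lists were not tested as sets, and their genes are not independent of each other. The 8 members had a median difference of 0.45 in risperidone livers, with 6 positive, and of 0.34 in olanzapine livers, with 5 positive.

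Most members differed between the sexes in the liver. Cyp4a14, Cyp4a10, Acot1, Pdk4 and Ehhadh, that is 5 of 8 members, were lower in males than in females at an adjusted p under 0.05, whereas the background was 6.23% of all genes, with 748 lower and 468 higher in males. None of the 8 was higher in males. The median difference over the members was -1.5, against 0 over all genes. Each of these 5 calls was also made when any single mouse was left out.

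Cyp4a14 had a lowest, median and highest level of 9.29, 14.53 and 17.55 in males, against 16.35, 18.22 and 18.90 in females, so that 10 of 12 males were below every female. The difference, male minus female, was -4.06 (SE 0.61, adjusted p = 3.57e-05, limma), and it was -3.52 in risperidone mice, -3.23 in olanzapine mice and -5.43 in vehicle mice. Under vehicle the 4 males, at 9.29, 12.23, 12.71 and 14.56, were all below the 4 females, at 16.35, 16.81, 18.49 and 18.88. Cyp4a10 was 11.99, 15.49 and 16.90 in males, against 16.30, 17.18 and 18.46 in females (lowest, median and highest), and 9 of 12 males were below every female. Its difference was -1.95 (SE 0.39, adjusted p = 0.00154). These 2 genes separated the sexes in vehicle mice without overlap, and the share of all genes that did so was not counted. In olanzapine livers the 4 males were below the 4 females for Ehhadh, Pdk4, Cyp4a14 and Acot1, but above them for Cpt1a. There too, the share of all genes without overlap between the sexes was not counted, so no background stands beside this.

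Acot1, the thioesterase, was 5.19, 7.22 and 9.50 in males, against 4.73, 10.11 and 12.93 in females (lowest, median and highest). The difference was -2.75 (SE 0.62, adjusted p = 0.00462). No male was below every female, because vehicle female F1 had the lowest level of all mice, 4.73. Pdk4 was 4.26, 4.92 and 5.26 in males, against 4.46, 6.46 and 10.84 in females, with a difference of -1.64 (SE 0.39, adjusted p = 0.0074). That difference was -3.02 in risperidone mice and -1.31 in olanzapine mice, where males and females did not overlap, and -0.57 in vehicle mice, where they did. Ehhadh was 12.53, 13.46 and 14.70 in males, against 12.03, 15.21 and 17.11 in females, with a difference of -1.35 (SE 0.37, adjusted p = 0.0223). Ehhadh did not pass with trended and robust variances (adjusted p = 0.0621). Ppara (-0.08, SE 0.19), Cpt1a (0.17, SE 0.14) and Fgf21 (-0.22, SE 0.25) were not called between the sexes.

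Within mouse numbers 19 to 27 all 5 genes were called, with male minus female differences of -4.57 for Cyp4a14, -3.70 for Acot1, -2.73 for Pdk4, -2.11 for Ehhadh and -1.95 for Cyp4a10. Within numbers 1 to 9 they were -3.67, -2.21, -0.85, -0.79 and -2.03, and Cyp4a14 alone was called. Levels of Acot1 and Ehhadh in vehicle females fell apart by number. Acot1 was 4.73 in F1 and 7.47 in F2, but 12.68 in F20 and 11.60 in F21, and Ehhadh was 12.03 and 13.99, but 17.11 and 15.52, in the same mice. The hepatocyte marker mean lay between 19.14 and 19.45 in the livers of both sexes. Alb (19.69 to 19.93), Apoa1 (19.55 to 19.90) and Serpina1a (19.54 to 19.78) were near the highest value of the series, 19.93. They had little room to differ, so this mean cannot tell whether hepatocyte content differed between the sexes. Cps1, the other marker, was 17.30 to 18.36. In whole tissue, fewer cells of a type and less RNA per cell cannot be told apart.

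Of the 56 further pathway genes, 12 were lower and 3 were higher in male livers, where 6.23% of all genes were called. The median difference over the 56 was -0.21. The 15 other PPARA targets had no common direction, with a median of 0.008 and 8 positive, and of these 4 were called lower and 2 higher. The 3 that were higher were Cyp4a12a (9.20, SE 0.21, adjusted p = 3.26e-23) and Cyp4a12b (7.63, SE 0.16, adjusted p = 2.41e-24), the male-type members of the Cyp4a family, and Acads, a short-chain acyl-CoA dehydrogenase (0.33, SE 0.10, adjusted p = 0.0356). Those that were lower included relatives of Acot1, with Acot3 at -5.95 (SE 0.60, adjusted p = 2.66e-08), Acot4 at -2.57 (SE 0.35, adjusted p = 8.11e-06) and Acot2 at -1.86 (SE 0.25, adjusted p = 6.89e-06). They also included Ppargc1a, a coactivator of PPARA (-1.28, SE 0.26, adjusted p = 0.0018), and Klb, the co-receptor of FGF21 (-0.81, SE 0.22, adjusted p = 0.022). Among these Cyp4a genes, Cyp4a12a and Cyp4a12b were thus on the side of males. Cyp4a10, Cyp4a14 and Cyp4a31 (-1.43, SE 0.42, adjusted p = 0.0347) were on the side of females. Cyp4a31 may share its signal with Cyp4a10, and Cyp4a32, also measured, is not described here.

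**Figure D2:**
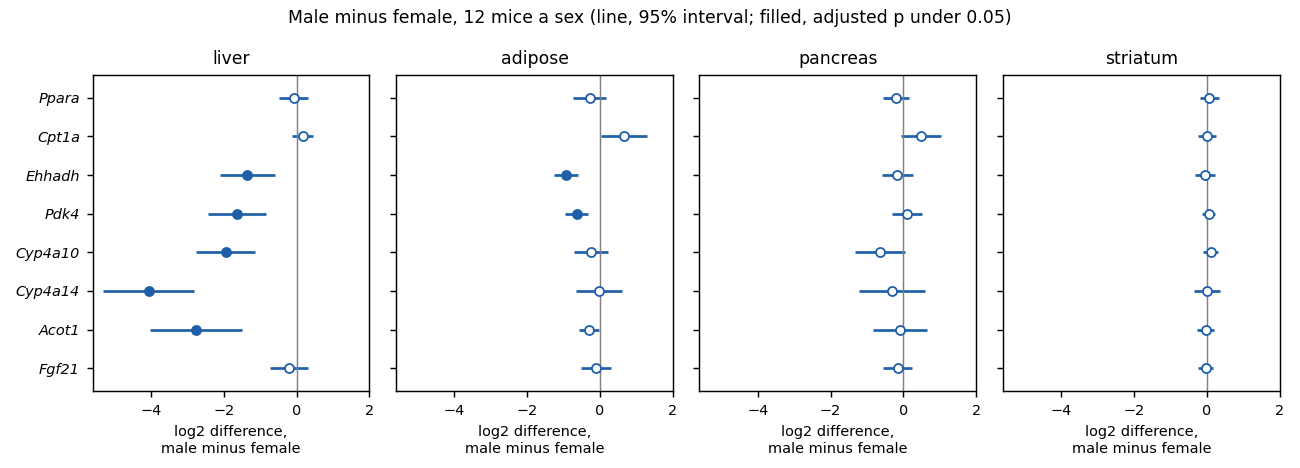
Male minus female log2 differences of the 8 genes in each tissue, with 95% intervals from the limma fit over 24 mice. Filled points passed an adjusted p under 0.05, as did 5 genes in the liver, from -4.06 for Cyp4a14 to -1.35 for Ehhadh, 2 in adipose tissue and none in pancreas and striatum.

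The stretches upstream of Acot1, Ehhadh and Pdk4 are shown because these are the genes lower in male livers that the promoter table lists (RefSeq, GRCm38.p6). The table lists 6 of the 8 members and neither Cyp4a10 nor Cyp4a14. PPARA with its partner is known to bind 2 copies of AGGTCA in the same direction, 1 base apart. Both strands of the 250 bases before each gene start were searched, and capitals mark the stretch closest to that repeat.
Acot1, chr12:84009252-84009501, plus strand: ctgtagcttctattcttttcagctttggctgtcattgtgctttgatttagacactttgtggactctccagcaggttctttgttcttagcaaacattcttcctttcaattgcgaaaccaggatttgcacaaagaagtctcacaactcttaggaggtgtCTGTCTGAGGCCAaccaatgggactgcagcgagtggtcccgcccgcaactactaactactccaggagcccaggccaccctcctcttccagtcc
Ehhadh, chr16:21787835-21788084, minus strand: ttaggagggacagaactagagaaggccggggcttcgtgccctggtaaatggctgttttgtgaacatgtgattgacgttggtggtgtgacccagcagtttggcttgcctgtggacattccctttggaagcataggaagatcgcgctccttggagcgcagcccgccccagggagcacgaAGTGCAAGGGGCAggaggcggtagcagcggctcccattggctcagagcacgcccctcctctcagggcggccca
Pdk4, chr6:5496279-5496528, minus strand: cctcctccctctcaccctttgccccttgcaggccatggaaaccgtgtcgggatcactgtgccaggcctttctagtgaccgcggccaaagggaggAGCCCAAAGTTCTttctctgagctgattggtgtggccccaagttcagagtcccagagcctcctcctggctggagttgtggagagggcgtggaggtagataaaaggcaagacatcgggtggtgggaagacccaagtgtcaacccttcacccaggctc
The marked stretches start 93, 73 and 156 bases before the start of Acot1, Ehhadh and Pdk4, and each differs from the repeat at 4 positions. Of 32851 mouse promoters in the same table, 79.8% hold a stretch with at most 4 differences, and 24.6% hold one with at most 3, so the window of these 3 genes is ordinary in this respect.

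Members also varied together between livers of the same treatment and sex. Each level was taken as its deviation from the mean of its treatment and sex, and all 28 pairs of members were correlated over 24 mice with 100000 permutations within those groups. Of the 28 correlations, 27 were positive, with a median r of 0.38, and 9 had a Benjamini-Hochberg adjusted p under 0.05. The 9 pairs linked Ehhadh, Cyp4a10, Cyp4a14, Acot1 and Ppara, and 8 of them also had a Spearman adjusted p under 0.05. The exception was Ppara and Ehhadh (r = 0.569, Spearman adjusted permutation p = 0.07).

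Ehhadh and Acot1 had Pearson's r of 0.893 and Spearman's rho of 0.778 (adjusted permutation p = 0.00322), and r was 0.763 without the 2 mice farthest from the median of Ehhadh. Cyp4a10 and Cyp4a14 had r of 0.806 and rho of 0.87 (adjusted permutation p = 0.00322), and r was 0.702 without the 2 mice farthest from the median of Cyp4a10. Ppara varied with Acot1 (r = 0.646, rho = 0.594, adjusted permutation p = 0.00359) and r was 0.6 without the 2 farthest mice. The other 6 pairs had r between 0.531 and 0.642. Cpt1a, Pdk4 and Fgf21 were in none of the 9 pairs.

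The range of the mouse number moved with these levels. In livers, members were higher in mice numbered 19 to 27 than in those numbered 1 to 9 in 8 of 8 cases, with differences of 2.05 for Acot1 (SE 0.51, adjusted p = 0.0577), 1.14 for Ehhadh (SE 0.32, adjusted p = 0.0793), 0.79 for Pdk4 and 0.48 for Ppara. None was called, although these 4 had an unadjusted p under 0.05, while 0.666% of all genes were called and 14.4% had an unadjusted p under 0.05. When the mean of each range was removed as well, none of the 28 pairs had an adjusted p under 0.05 (lowest 0.0636) and 8 had an unadjusted p under 0.05, and the 9 pairs were still positive. Ehhadh and Acot1 then had r of 0.715, and Cyp4a10 and Cyp4a14 had r of 0.838. Within the ranges 1 to 9 and 19 to 27, r was 0.885 and 0.795 for Ehhadh and Acot1, and 0.876 and 0.775 for Cyp4a10 and Cyp4a14.

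**Figure D3:**
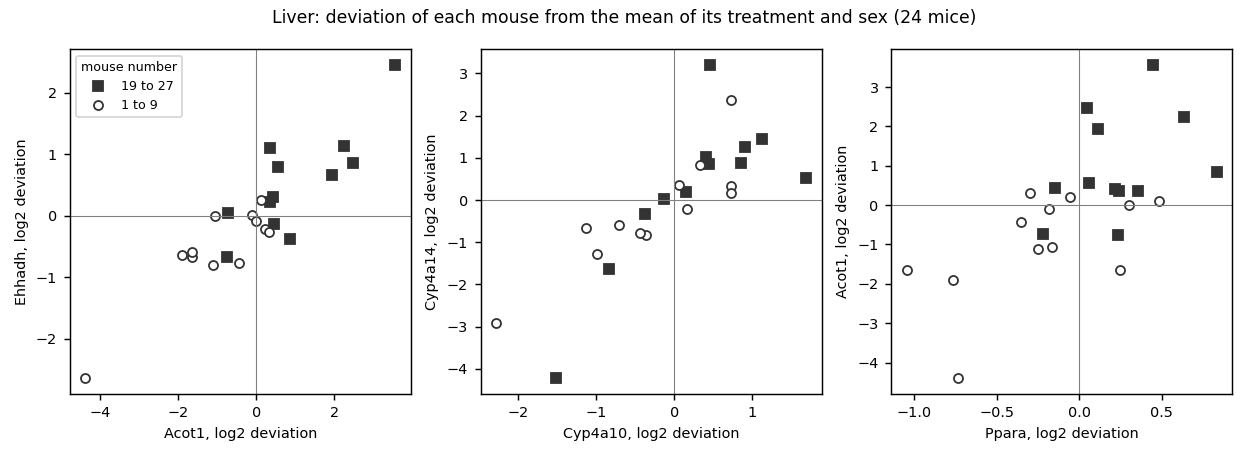
Deviations of liver log2 levels from the mean of each treatment and sex for 3 pairs of members (Ehhadh and Acot1, Cyp4a14 and Cyp4a10, Acot1 and Ppara), with 1 point per mouse and the range of the mouse number marked. Ehhadh and Acot1 (r = 0.893) and Cyp4a10 and Cyp4a14 (r = 0.806) rise together over 24 mice.

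Over the 24 livers, the 10 genes outside the members whose deviations were most like the mean of the 7 members other than Ppara were Kdsr (r = 0.878), Acadm (0.872), Map1lc3a (0.852), Cyp4a31 (0.852), Acadl (0.851), Acot2 (0.85), Baiap2l1 (0.841), Hsd17b11 (0.84), Acaa1a (0.838) and Ephx1 (0.836). The gene at rank 100 had r of 0.697. The mean of each range of mouse numbers was not removed from these deviations. Cyp4a31 and Acot2 are the relatives of Cyp4a10 and Acot1 that may share their signal. Among the 7 members, which are part of that mean, Acot1 and Ehhadh had the highest r (0.889 each) and Cpt1a the lowest (0.439), while Ppara, which is not, had r of 0.569.

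In adipose tissue, 0% of genes were called for risperidone against vehicle, 0% for olanzapine against vehicle and 0% for olanzapine against risperidone, so no member was, while 1761, 1064 and 1800 genes had an unadjusted p under 0.05. The member farthest from its error was Acot1. It had a lowest, median and highest level of 8.27, 8.43 and 8.93 under risperidone and of 6.95, 7.83 and 8.29 under olanzapine, against 7.46, 7.99 and 8.42 under vehicle. All 8 risperidone mice were above the vehicle median, and 4 were above every vehicle mouse. The risperidone difference was 0.59 (SE 0.17, adjusted p = 0.453) and was 0.48 without the 4 arrays with gonad and tract signal. Within mouse numbers 1 to 9 it was 0.70, and within 19 to 27 it was 0.46.

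Between the drugs, adipose Acot1 was lower under olanzapine than under risperidone by a difference of -0.72 (SE 0.17, adjusted p = 0.276), or -0.62 without the same 4 arrays. Within males the difference was -0.92 (SE 0.24, adjusted p = 0.0398), in a comparison in which 2.59% of genes were called. Males were at 6.95, 7.77, 7.77 and 7.88 under olanzapine and at 8.27, 8.40, 8.46 and 8.93 under risperidone, with no overlap. Without the 4 arrays, which leaves 1 risperidone male, the difference within males was -0.87 and no longer called (adjusted p = 0.836). Within females the difference was -0.51 (SE 0.24, adjusted p = 0.981).

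Cpt1a in adipose tissue moved with the arrays that carry gonad and tract signal. In males, where 4.03% of genes were called for risperidone against vehicle, Cpt1a was 1.78 higher under risperidone (SE 0.44, adjusted p = 0.0224). It was 11.79 in M4, 10.85 in M5, 10.44 in M23 and 9.07 in M24 under risperidone, against 8.14, 8.63, 8.90 and 9.37 in vehicle males. The 3 high mice are the 3 risperidone arrays with gonad and tract signal, where that marker mean was 10.18, 10.01 and 9.72. Olanzapine M9, with a marker mean of 10.12, had Cpt1a at 8.81. Without the 4 such arrays the difference was 0.31 within males and not called (adjusted p = 1), with 1 risperidone male left whose spread was taken to be that of the other groups. Over all mice the risperidone difference was 0.75 (SE 0.38, adjusted p = 0.569) and turned to -0.10 without these arrays. The effect of risperidone in males minus that in females was 2.07 for Cpt1a (SE 0.62, adjusted p = 0.197), where 0.0513% of genes were called. For olanzapine 0% were, with 496 genes at an unadjusted p under 0.05, and no member.

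**Figure D4:**
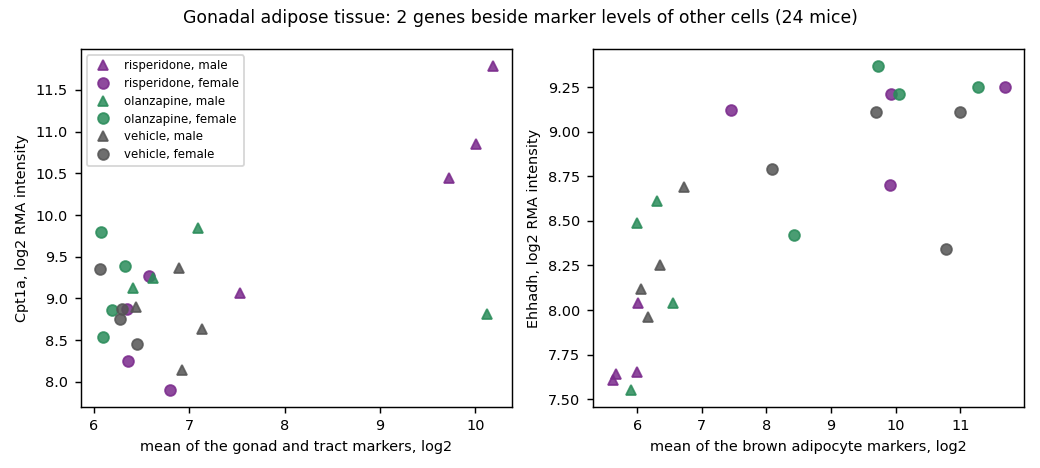
Adipose log2 levels of Cpt1a against the mean of gonad and tract markers (left) and of Ehhadh against the mean of brown adipocyte markers (right) in 24 mice, by treatment and sex. The risperidone males M4, M5 and M23 have the highest Cpt1a, 10.44 to 11.79, and gonad and tract markers of 9.72 to 10.18, and Ehhadh is lower in males, where brown adipocyte markers are at most 6.73.

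Between the sexes, Ehhadh and Pdk4 were lower in male adipose tissue, that is 2 of 8 members against 4.6% of all genes, of which 730 were lower and 167 higher in males. Ehhadh had a lowest, median and highest level of 7.55, 8.04 and 8.69 in males, against 8.34, 9.11 and 9.37 in females, with a difference of -0.94 (SE 0.16, adjusted p = 0.00051). Pdk4 was 5.33, 5.90 and 6.85 in males, against 6.17, 6.58 and 7.01 in females, with a difference of -0.64 (SE 0.15, adjusted p = 0.0144). For each gene 9 of 12 males were below every female. Without the 4 arrays Ehhadh still passed (-0.70, adjusted p = 0.0145) and Pdk4 did not (-0.54, adjusted p = 0.0848). Within mouse numbers 1 to 9 the differences were -0.99 for Ehhadh and -0.69 for Pdk4, and within 19 to 27 they were -1.0 and -0.63.

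Most genes of mitochondrial beta-oxidation were lower in male adipose tissue. Of 16 measured genes of that list, 13 were lower in males and none was higher, with a median difference of -1.45 against 0.004 over all genes. Hadhb and Hadha, the subunits of the trifunctional protein, were at -2.11 (SE 0.23, adjusted p = 2.34e-06) and -2.0 (SE 0.22, adjusted p = 3.76e-06). Acadl, the long-chain acyl-CoA dehydrogenase, was at -2.01 (SE 0.23, adjusted p = 4.56e-06) and Slc25a20, the carnitine carrier, at -1.95 (SE 0.27, adjusted p = 4.73e-05). Acadm, the medium-chain acyl-CoA dehydrogenase, was at -1.44 (SE 0.23, adjusted p = 0.000258). Over all 56 pathway genes 25 were lower and none was higher, where 4.6% of all genes were called. Without the 4 arrays 19 were lower, where 4.84% of all genes were called. Cpt1a did not share this direction (0.66, SE 0.31, adjusted p = 0.269). Brown adipocyte markers (Ucp1, Cidea and Elovl3) moved with sex in the same arrays. Their mean had a lowest, median and highest level of 5.62, 6.03 and 6.73 in males, against 7.46, 9.92 and 11.69 in females, without overlap, and their part in the result was not tested.

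In the pancreas no member passed in any comparison. Markers of its own cells spread widely within each treatment. The mean of 4 acinar cell markers was 11.65 to 18.29 under risperidone, 10.37 to 18.52 under olanzapine and 11.38 to 18.6 under vehicle. In the same order, the mean of 3 islet cell markers was 8.44 to 12.35, 8.75 to 11.49 and 9.1 to 14.44. The part of this spread in the pancreatic results was not tested. The limma fit called 0% of genes for risperidone against vehicle, 0% for olanzapine against vehicle and 0% for olanzapine against risperidone, with 632, 1607 and 784 genes at an unadjusted p under 0.05. Cyp4a10 was 6.90, 7.59 and 11.19 under risperidone and 6.06, 7.59 and 8.28 under olanzapine, against 6.33, 7.07 and 7.74 under vehicle (lowest, median and highest). The risperidone difference was 0.91 (SE 0.41, adjusted p = 0.999). It rested in part on risperidone F4, the array with the highest hepatocyte signal, at 11.19 for Cyp4a10 and 11.38 for Cyp4a14, and was 0.47 without it and 0.52 without the 3 arrays with hepatocyte markers over 10. Within mouse numbers 1 to 9 it was 0.81, and within 19 to 27 it was 0.86.

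Pancreatic Cpt1a was 6.25, 7.43 and 8.13 under olanzapine and 7.18, 8.01 and 8.79 under risperidone, against 7.17, 7.73 and 9.61 under vehicle (lowest, median and highest). The groups overlapped. The olanzapine difference from vehicle was -0.83 (SE 0.33, adjusted p = 0.572) and was -0.39 without the same 3 arrays, as the 2 highest vehicle mice, M3 at 9.61 and M19 at 9.43, are among them. Olanzapine minus risperidone was -0.76 (SE 0.33, adjusted p = 0.998). Between the sexes 0 of 8 members and 0.108% of genes were called, and 829 genes but no member had an unadjusted p under 0.05. For the sex-specific drug effects 0% of genes were called for risperidone and 0% for olanzapine, with 967 and 786 genes but no member at an unadjusted p under 0.05.

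In the striatum, 0% of genes were called for risperidone against vehicle and 0% for olanzapine against vehicle, with 1053 and 2057 genes at an unadjusted p under 0.05. For olanzapine against risperidone 4.86% of genes were called (557 higher and 391 lower under olanzapine), and among the members 1 of 8, Pdk4. Pdk4 had a lowest, median and highest level of 6.56, 6.85 and 7.05 under olanzapine and of 6.95, 7.20 and 7.55 under risperidone, with 6.67, 6.93 and 7.19 under vehicle. Olanzapine minus risperidone was -0.37 (SE 0.10, adjusted p = 0.0363), a difference that was no longer called without any of 11 of the 16 mice compared, when it was between -0.31 and -0.38. It was -0.56 in females and -0.18 in males. Against vehicle, Pdk4 was 0.26 higher under risperidone (SE 0.10, adjusted p = 0.913) and 0.11 lower under olanzapine (-0.11, SE 0.10).

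The mean of 4 markers of striatal projection neurons also separated the drugs in these arrays. It was 12.09, 14.38 and 15.12 under olanzapine and 15.18, 15.97 and 16.32 under risperidone, with 14.06, 15.21 and 16.26 under vehicle (lowest, median and highest), and its part in the Pdk4 difference was not tested. The mean of 5 choroid plexus markers was 7.87, 8.20 and 10.93 under olanzapine and 8.13, 11.74 and 12.82 under risperidone, with 7.49, 8.25 and 11.75 under vehicle. The part of this signal in the striatal values of Pdk4, Fgfr1 and Ppara was not tested. Of the 56 pathway genes, Fgfr1, a receptor of FGF21, was the only one called between the drugs in the striatum, higher under olanzapine than under risperidone (0.49, SE 0.14, adjusted p = 0.0387). Striatal Ppara was 0.33 lower under risperidone than under vehicle (-0.33, SE 0.16, adjusted p = 0.913). It was 5.98, 6.28 and 7.16 under risperidone, against 6.29, 6.66 and 7.20 under vehicle (lowest, median and highest), and 4 risperidone mice were below every vehicle mouse. Male and female striata differed in none of the 8 members, where 0.39% of genes were called and 1368 genes but no member had an unadjusted p under 0.05. The sex-specific drug effects called 0% of genes for risperidone and 0% for olanzapine, with 1127 and 1172 genes but no member at an unadjusted p under 0.05.

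**Figure D5:**
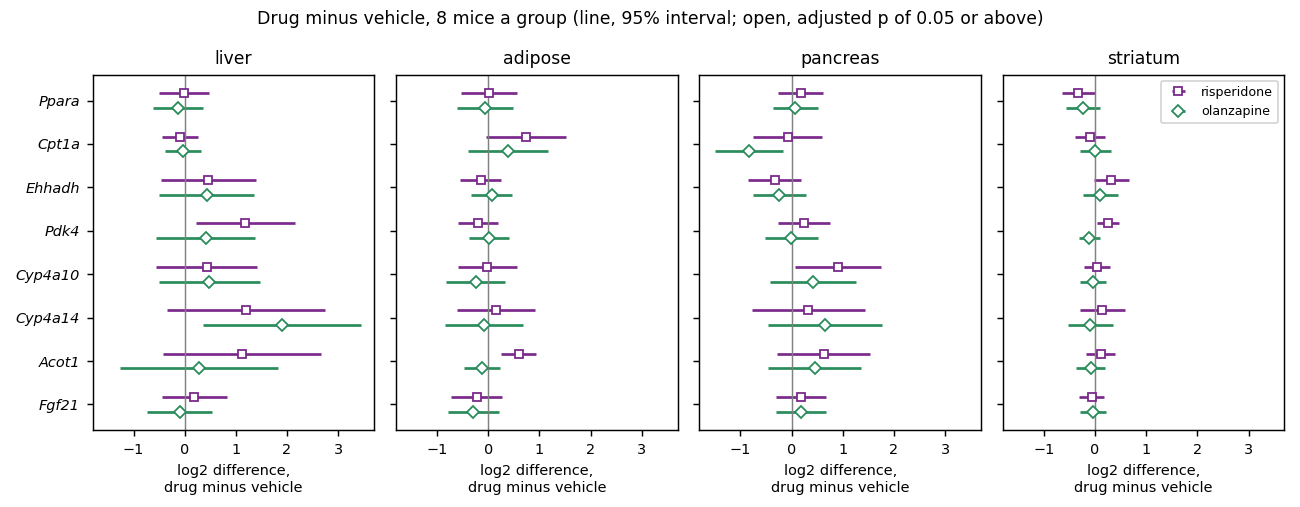
Log2 differences from vehicle of the 8 genes in each tissue under risperidone and olanzapine, with 95% intervals from the limma fit over 24 mice. None of the 8 genes passed an adjusted p under 0.05 in any tissue, and the widest intervals are those of Cyp4a14 and Acot1 in the liver.

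The same 28 pairs were correlated in each of the other tissues, and tissues were not tested against each other. None of the 28 pairs passed in adipose tissue, pancreas or striatum, where 13, 17 and 13 pairs were positive and the median r was -0.05, 0.06 and -0.08. Some members were dim there. By mean level among all genes, Cyp4a10 stood at percentile 7.4 in adipose tissue and 13.4 in striatum, and Pdk4 at 12.3 in pancreas. Cpt1a stood at 81.0, 76.5 and 58.6 in adipose tissue, pancreas and striatum. Whether the dim levels lie above background was not tested, so these counts do not show that covariation was absent. The highest r there was that of Cyp4a10 and Cyp4a14 in the pancreas (0.836, adjusted permutation p = 0.091), a pair in which risperidone F4 is high for both genes.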

How the data were processed

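The values are log2 intensities, deposited by the authors after robust multi-array averaging (RMA, in Affymetrix Expression Console 1.4 per the processing notes). Whether tissues were normalized together and the genome build are not given in the sources used here. Of 22206 transcript clusters, 19572 had 1 gene symbol in the platform annotation and 2634 had none, and clusters of a gene were averaged, which gave 19505 genes. Each tissue was fitted alone with limma 3.58.1 in R 4.3.3, with treatment and sex as terms and 24 arrays (8 per group), and called at a Benjamini-Hochberg adjusted p under 0.05 over all genes. A fit with 6 groups of treatment and sex gave values within sexes. The number of arrays limits the precision, and no detection call was used, so whether low levels lie above background was not tested. The labels number the mice, and p-values measure the spread between mice. Correlations used Python 3.11.15 and numpy 2.4.6. The fit was tested on simulated data.

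The 8 members and the gene lists were chosen with earlier results of these data known. Named genes were the members, pathway genes called for a drug against vehicle, the 5 called pathway genes with the lowest p between the sexes in a tissue, and the 10 genes most like the liver members. Acads, Ppargc1a and Klb in the liver sex comparison, Cyp4a31 there, Acot2 under risperidone and Fgfr1 in the striatum were singled out after their values were seen. Alternatives were quantile and median scaling, a filter on dim genes, trended and robust variance, array weights, other terms and samples, the range of the mouse number and leaving out each mouse. Leaving out arrays by gonad, tract or hepatocyte markers, the mouse number as a block between the sexes and the Spearman ranking were added after seeing the data.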

Additional observations from a re-analysis of the deposited data

Results flagged for a closer look

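Among 96 groups of 8 mice (8 genes, 4 tissues and 3 treatments), 8 held a mouse whose level was far from the others by a gap test that flags about 1 in 20 groups by chance. In the liver these were Ppara in vehicle F1 (12.45, next 13.17), Pdk4 in risperidone F23 (10.84, next 7.54) and Fgf21 in risperidone M24 (7.38, next 5.66). In the pancreas they were Cyp4a10 (11.19, next 7.87) and Cyp4a14 (11.38, next 7.25) in risperidone F4, whose hepatocyte markers averaged 14.86, and Fgf21 in risperidone F6 (8.46, next 7.22). The others were Acot1 in adipose tissue of olanzapine M25 (6.95, next 7.70) and Fgf21 in the striatum of risperidone F6 (6.16, next 5.67).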

How the results depend on the processing

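No paired analysis was possible because the treatment groups share no mouse numbers. Within a treatment, 8 numbers were carried by a male and a female, and the labels do not say what else those mice shared. The correlation of their deviations exceeded 0.1 in 1 of 8 pairs in liver, 4 in adipose tissue, 1 in pancreas and 2 in striatum, and of 16 mice in each tissue 0, 5, 2 and 1 correlated best with their own number. With the number as a replicate block, added after seeing the data, male minus female called 5 members in the liver and 1 in adipose tissue, where Pdk4 was -0.73 (adjusted p = 0.0504). None of the 1728 alternative values of single genes, those with a mouse left out apart, changed direction while called, 1709 kept their side of the threshold, 17 lost the call and 2 gained it. Of 3072 values with 1 mouse left out, 11 lost the call, all of striatal Pdk4. In the liver, male minus female called 5 members, and 1 within mouse numbers 1 to 9, and Ehhadh was not called with trended and robust variance. In adipose tissue it called 2, and 1 with the dimmest 25% of genes left out, 0 within numbers 1 to 9, 1 within 19 to 27 and 1 without the arrays with gonad and tract signal. Within males, risperidone minus vehicle and olanzapine minus risperidone in adipose tissue called 1 member each, against 0 over all mice, and 0 each without the arrays with gonad and tract signal. Olanzapine minus risperidone in the striatum called 1 member, Pdk4, and 0 under quantile normalization (adjusted p = 0.0606), with the range of the mouse number as a term (0.0614), with trended and robust variance (0.0521), within females (0.0874), within males (0.681), within numbers 1 to 9 (0.529) and within 19 to 27 (0.459), and 0 to 1 when each mouse was left out. It was 0 without olanzapine F7, F9, F25, F26, M25 or M26 or risperidone F4, F5, F6, M23 or M24. The count of liver pairs that varied together was 9, or 8 also by Spearman's rho, and 0 with the range of the mouse number removed, and that of adipose pairs was 0, and 1 without the 2 farthest mice of each pair. With 8 mice a group, the intervals of the liver drug differences were widest for Acot1 (-0.43 to 2.66 for risperidone minus vehicle).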
